A study of Mus musculus with 12 samples.

Results

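Antibodies are read out in RNA mainly through their constant genes, and 10 such genes were followed across mouse lung tumours and the lung beside them. They were the 8 heavy-chain constant genes (Ighm, Ighd, Ighg1, Ighg2b, Ighg2c, Ighg3, Ighe and Igha), the kappa light-chain constant gene Igkc and Jchain. They were picked by gene name, with earlier results of these data known, and all 10 were found among the 78298 genes of the deposited count table. RNA was measured by bulk sequencing in 12 libraries, 3 in each of 4 groups. The groups were normal adjacent lung from VEH-treated mice, normal adjacent lung from HDM-treated mice, LLC tumours from VEH-treated mice and LLC tumours from HDM-treated mice. HDM stands for house dust mite, a source of airborne allergen, and the series calls the exposure chronic and the adjacent tissue matched, whereas VEH and LLC are not spelled out in the labels. Strain, age, sex and the way tumours arose are not given in the sources used here. Each library came from a small aliquot of tumour or lung tissue dissected from the animal, so its cell makeup is that of the piece taken. The labels number the libraries of a group as replicates without saying that they came from separate mice, so p-values measure only the spread between these libraries, which may be technical.

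An antibody is built from heavy and light chains, each with a variable part that binds antigen and a constant part that sets the class. In mice the heavy-chain constant genes lie in a row on chromosome 12, and a B cell joins its variable segment first to Ighm and Ighd and, after class switching, to a gene further along. IgM and IgD are the classes of naive B cells, the IgG classes mark switched responses in blood and tissue, IgE arms mast cells in allergy, and IgA is the main class secreted across airway and gut linings. Plasma cells carry very large amounts of these RNAs. Jchain encodes the joining chain, which links IgM into pentamers and IgA into dimers so that the receptor encoded by Pigr can carry them across epithelium.

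All 8 heavy-chain genes are annotated on the minus strand of chromosome 12 (GENCODE M39, GRCm39). In the order of transcription they are Ighm (113382178 to 113386350), Ighd (113370224 to 113379944), Ighg3 (113319844 to 113324852), Ighg1 (113288860 to 113294143), Ighg2b (113266585 to 113271553), Ighg2c (113248945 to 113252552), Ighe (113232880 to 113236868) and Igha (113218450 to 113223856). Igkc lies on chromosome 6 (70703419 to 70703950) and Jchain on chromosome 5 (88667668 to 88675750). The 2 classes that bind the joining chain share a tail on the secreted heavy chain, shown here because Ighm, Igha and Jchain are compared below. Each line gives the last 20 codons before the stop codon of the secreted form, in coding exon sequence from GRCm39 read 5′ to 3′, and the capitals mark the codon of the penultimate cysteine, which forms the bond to the joining chain. The Ighm tail is at chr12:113384490-113384549 in exon 4 and the Igha tail at chr12:113222391-113222450 in exon 3, both on the minus strand.
Ighm: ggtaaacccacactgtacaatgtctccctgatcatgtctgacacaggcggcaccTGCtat
Igha: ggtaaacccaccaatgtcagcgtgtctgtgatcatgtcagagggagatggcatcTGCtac

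The 4 IgG genes are alike in sequence, and their second exon encodes the hinge between the antigen-binding arms and the stem. The hinge exons are shown because the IgG classes are told apart in the counts, with capitals for their in-frame cysteine codons. They are at chr12:113293464-113293502 (Ighg1), chr12:113270881-113270946 (Ighg2b), chr12:113251883-113251945 (Ighg2c) and chr12:113324149-113324196 (Ighg3), on the minus strand of GRCm39, and they hold 4, 4, 3 and 1 cysteine codons.
Ighg1: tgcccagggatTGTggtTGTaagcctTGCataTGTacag
Ighg2b: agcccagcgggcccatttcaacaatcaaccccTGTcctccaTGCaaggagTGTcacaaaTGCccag
Ighg2c: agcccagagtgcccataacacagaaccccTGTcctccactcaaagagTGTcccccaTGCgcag
Ighg3: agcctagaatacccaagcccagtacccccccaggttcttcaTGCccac

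The first exon of the IgG genes, 291 bases long in each, was 78.4% to 88.3% identical between pairs of them. No run of 150 bases, the read length, occurred exactly in the exons of more than 1 heavy-chain gene (0% of windows for each of the 8 genes). Shorter or mismatched reads could still have been split between IgG genes, and how the authors counted such reads is not given in the sources used here.

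Library totals ranged from 20608682 to 32765364 counts. Adjacent lung was rich in alveolar type 2 cell markers, surfactant genes among them (a sum of 15107 to 40195 CPM over 5 genes, against 65.1 to 7782 CPM in tumours), and tumours were rich in proliferation markers (370.0 to 773 CPM over 3 genes, against 18.9 to 106 CPM). CPM is a gene's count scaled to a common library size by TMM. The name of each library starts with a prefix, and 6 prefixes occur, each shared by a single normal and a single tumour library. The labels do not say what a prefix marks. For 2 prefixes the treatment labels conflict: tumour HDM replicate 2 has the prefix of normal VEH replicate 2, and tumour VEH replicate 3 has that of normal HDM replicate 3. Labels were kept as given, and the tests are given with and without these 4 libraries. Whether labels or names were exchanged among them was not tested, and an exchange of treatment labels would alter each HDM against VEH value below. Normal VEH replicate 2, 1 of the 4, also stood apart from the other normal lungs in its markers, with proliferation markers at 106 CPM against 18.9 to 32.1 CPM and a sum over 3 endothelial markers of 766 CPM against 1491 to 1710 CPM. Tumours differed in their markers too. HDM tumour replicate 3 had the lowest alveolar type 2 sum, at 65.1 CPM against 2115 to 7782 CPM in the other tumours. Its sum over 3 markers of airway club cells was 3.37 CPM, against 443 to 19049 CPM. The highest club cell sum among tumours was in VEH tumour replicate 2. That library also led the tumours in bronchial gland and airway mucous markers, with 1412 CPM against at most 275 CPM. The part of these differences in the antibody results and in the gene lists below was not tested.

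The antibody genes split the adjacent lungs into libraries of very different level, and the split did not follow the treatment labels. The 10 genes together took 0.0139%, 0.431% and 0.00655% of counts in normal VEH replicates 1, 2 and 3. In normal HDM replicates 1, 2 and 3 they took 0.885%, 0.466% and 0.0125%. So normal VEH replicate 2 lay with normal HDM replicates 1 and 2, and normal HDM replicate 3 lay with normal VEH replicates 1 and 3. The 3 high libraries are those whose name prefix joins them to a tumour labelled HDM, and the 3 low libraries are those joined to a tumour labelled VEH. In VEH tumours the genes took 0.00717%, 0.00781% and 0.00402% of counts, and in HDM tumours 0.0362%, 0.0412% and 0.00594%. HDM tumour replicates 1 and 2 thus lay above the VEH tumours, and HDM tumour replicate 3 lay within their range.

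**Figure D1:**
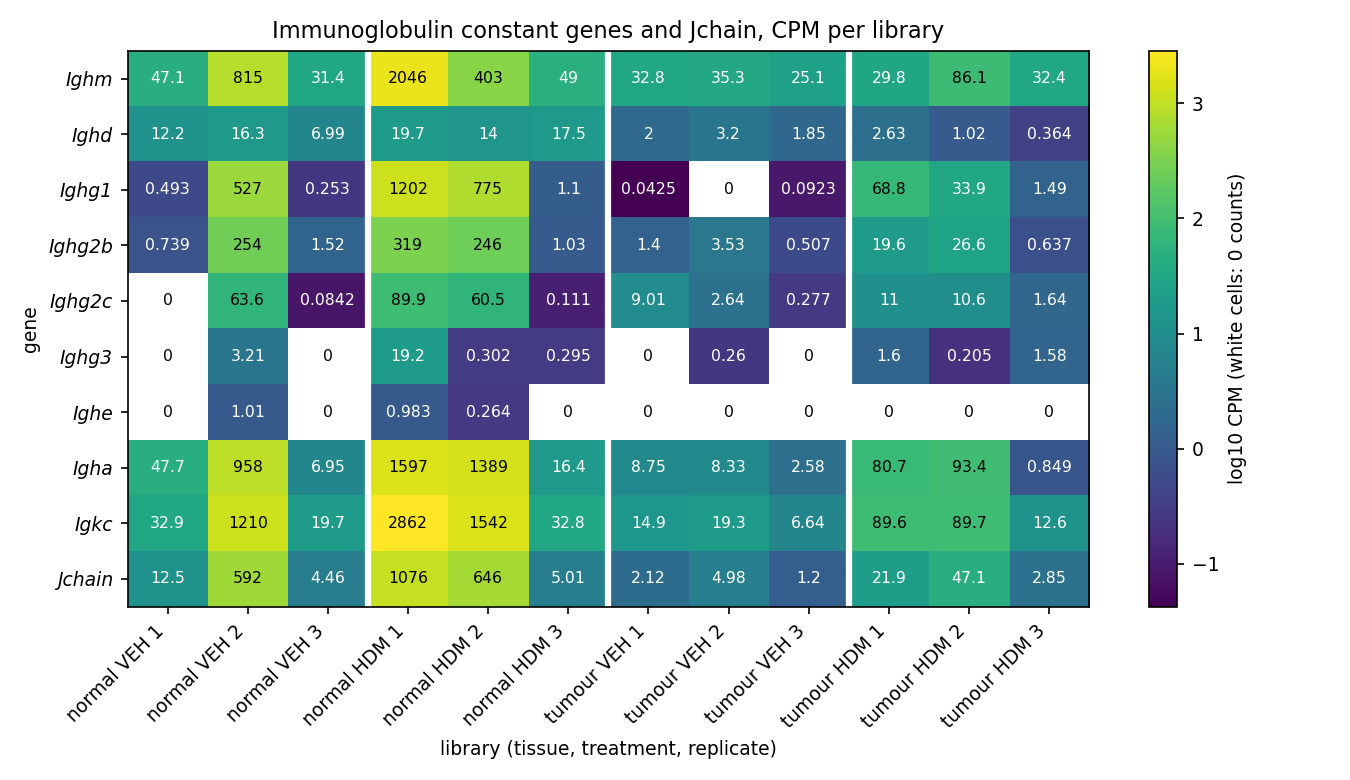
Level of each of the 10 genes (rows) in each of the 12 libraries (columns, grouped by tissue and treatment), printed as CPM and coloured by log10 CPM, with white cells for 0 counts. Normal VEH replicate 2 and normal HDM replicates 1 and 2 are the bright columns, with Igkc at 1209.9, 2862 and 1542 CPM, and Ighe is empty in all 6 tumours.

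Per length, the light chain gene Igkc led in each of the 4 groups. In normal VEH lung the mean levels per kilobase of exon were 791 CPM for Igkc, 158 for Ighm, 126 for Igha, 80.7 for Jchain, 67.9 for Ighg1, 32.0 for Ighg2b, 16.0 for Ighg2c, 6.23 for Ighd, 0.426 for Ighg3 and 0.212 for Ighe. In normal HDM lung Igkc (2780.1 CPM per kilobase) was again followed by Ighm (442) and Igha (375). In VEH tumours Igkc (25.6) was followed by Ighm (16.4) and then Ighg2c (2.997), with Ighg1 at 0.0173. In HDM tumours the order was Igkc (120.2), Ighm (26.2), Igha (21.9) and Ighg1 (13.4). In normal VEH lung the SD of Igkc, Ighm, Igha and Jchain was larger than the mean of each, so the means describe no single library well. For 7 genes (all but Ighd, Ighe and Ighg3) the group means ran, from high to low, normal HDM, normal VEH, tumour HDM and tumour VEH. Neighbours in that order overlapped in their libraries for each gene, except Ighg1 between HDM and VEH tumours.

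The first comparison asked how the antibody genes differ between an LLC tumour and adjacent lung in VEH-treated mice. Of the 9 genes that passed the filter on low counts, 3 fell in tumours (Ighd, Ighg1 and Jchain), none rose, and 6 did not pass the test (adjusted p below 0.05, edgeR quasi-likelihood test), where 20.6% of the 22190 genes tested were called lower and 38.9% in either direction. DESeq2 called 7 of the 9 lower, and 46.9% of all genes. Ighg2c did not pass there, and Ighg3 was given no adjusted p. All 9 had a negative log2 fold change, with a median of -4.95, beside a median of -0.11 over all genes. In 3 of the 9 (Ighd, Ighg1 and Igkc) the tumour libraries lay below all normal ones, as did those of 28.5% of all genes. In bulk tissue, fewer cells of a type and less RNA per cell cannot be told apart, here and in every later comparison.

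Among the unswitched classes, Ighd, which naive B cells make together with Ighm by alternative splicing, had 12.2, 16.3 and 6.99 CPM across normal VEH replicates 1, 2 and 3 and 1.997, 3.20 and 1.85 CPM across the VEH tumours. The groups did not overlap, and the log2 fold change was -2.33 ± 0.59 (SE, adjusted p 0.011). Ighd was also the antibody gene whose normal libraries differed least, from 6.99 to 19.7 CPM over all 6. Ighm was at 47.1, 815 and 31.4 CPM in normal VEH lung and at 32.8, 35.3 and 25.1 CPM in the tumours. Tumour VEH replicates 1 and 2 lay above normal VEH replicate 3, and the log2 value of -3.26 ± 1.40 did not pass (adjusted p 0.0868).

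Among the switched classes, Ighg1 had 12, 16762 and 6 counts across normal VEH replicates 1, 2 and 3, against 1, 0 and 2 counts in the VEH tumours. Nearly all of the difference lay in normal VEH replicate 2. Over summed counts the normal group was 5049-fold higher (95% exact counting interval 1727 to 24484), and without that library 8.99-fold higher (2.63 to 47.7). These intervals cover counting error only. The fitted log2 fold change was -11.88 ± 3.96 (adjusted p 0.037) with all libraries and -3.01 without normal VEH replicate 2 (adjusted p 0.547). Ighg2b was at 0.739, 254 and 1.52 CPM in normal lung against 1.40, 3.53 and 0.507 CPM in tumours, a log2 value of -5.54 ± 2.43 that did not pass (adjusted p 0.0924). Ighg2c, the subclass that accompanies interferon-gamma responses, went the other way in the libraries without conflict. It had 0, 2022 and 2 counts in normal VEH replicates 1, 2 and 3 and 212, 71 and 6 counts in the VEH tumours, so that tumour replicates 1 and 2 exceeded normal replicates 1 and 3. The fit with all libraries gave -2.42 ± 2.21 (adjusted p 0.396), and without the 4 libraries of conflicting prefixes 7.07 ± 1.59 (adjusted p 0.0272), where 15.8% of genes were called higher. In counts that was 283 against 2, a ratio of 135 (95% exact counting interval 37.0 to 1119.9), and 4 libraries remained.

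Ighg3 had 0, 102 and 0 counts in normal VEH lung and 0, 7 and 0 in the tumours, and did not pass (log2 -3.49 ± 2.33, adjusted p 0.247). Igha, the mucosal class, was at 47.7, 958 and 6.95 CPM in normal VEH lung and at 8.75, 8.33 and 2.58 CPM in the tumours. The groups overlapped at their edge, and the log2 value of -5.68 ± 2.17 did not pass (adjusted p 0.0603). Ighe, which did not pass the filter on low counts, had 32 counts in normal VEH replicate 2 and 0 in normal VEH replicates 1 and 3 and in all 3 tumours. Against a floor of 3 counts over the tumour group, it was at least 9.63-fold higher in normal lung, and both groups were at 0 without normal VEH replicate 2.

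Of the 2 partner chains, Igkc was at 32.9, 1209.9 and 19.7 CPM in normal VEH lung and at 14.9, 19.3 and 6.64 CPM in the tumours. Each tumour lay below each normal library, by a small margin for 2 of the normal libraries, and the log2 value of -4.95 ± 1.82 did not pass (adjusted p 0.0528). Jchain was at 12.5, 592 and 4.46 CPM against 2.12, 4.98 and 1.20 CPM. It passed with a log2 fold change of -6.18 ± 2.21 (adjusted p 0.0472), although its groups overlapped, and without normal VEH replicate 2 the value was -1.60 (adjusted p 0.444).

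With the name prefix as a block, all 3 calls were lost, at -2.09 for Ighd (adjusted p 0.0991), -2.83 for Ighg1 (adjusted p 0.419) and -0.80 for Jchain (adjusted p 0.594), where 12.3% of genes were called lower. Ighg2c was called higher in that fit (5.69, adjusted p 0.0425), as were 13.8% of genes. Without the 4 libraries of conflicting prefixes, no antibody gene was called lower under VEH (0 at an unadjusted p below 0.05), where 9.23% of genes were, and Ighd stood at -1.78 (adjusted p 0.16). The count of 3 also became 5 without normal HDM replicate 3, 0 without tumour VEH replicate 1 or 3, and 1 without normal VEH replicate 2, normal HDM replicate 1 or 2, tumour VEH replicate 2 or tumour HDM replicate 2. Calls over all genes moved too, from 8624 of 22190 with all libraries to 8549 of 22993 in the run with 5. They were 5733 of 23204 and 5947 of 23174 in the runs with 0, and 7986 to 9070 in those with 1. Ighd itself lost its call without tumour VEH replicate 1 (adjusted p 0.0534) or 3 (adjusted p 0.0568), at log2 values of -2.13 and -2.10.

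The second comparison set LLC tumours against adjacent lung in HDM-treated mice. Here 2 of the 9 genes fell (Ighm and Ighd), none rose, and 7 did not pass, where 28.9% of all genes were called lower and 51.9% in either direction. DESeq2 called 5 lower, with Igha, Igkc and Jchain added, and 56% of all genes. All 9 again had a negative log2 fold change, with a median of -4.07 beside -0.08 over all genes. Only Ighd had no overlap between groups, a property of 33.5% of all genes in that direction.

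Ighd had 19.7, 14.0 and 17.5 CPM across normal HDM replicates 1, 2 and 3 and 2.63, 1.02 and 0.364 CPM in the HDM tumours. Its log2 fold change was -3.68 ± 0.62 (adjusted p 0.000906), and it stayed called without each library in turn (log2 -4.50 to -3.09) and without the 4 libraries of conflicting prefixes (-3.39, adjusted p 0.0284). Ighm was at 2046, 403 and 49.0 CPM in normal lung and at 29.8, 86.1 and 32.4 CPM in tumours. Normal HDM replicate 3 lay within the range of the tumours, and the log2 fold change of -4.07 ± 1.45 (adjusted p 0.037) became -2.20 without normal HDM replicate 1 (adjusted p 0.191).

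In Igha, Ighg1, Ighg2b and Ighg2c, normal HDM replicates 1 and 2 were high and normal HDM replicate 3 lay within or below the range of the tumours. Igha was at 1597, 1389 and 16.4 CPM in normal lung and at 80.7, 93.4 and 0.849 CPM in tumours (log2 -4.10 ± 2.01, adjusted p 0.11). Ighg1 was at 1202, 775 and 1.10 CPM in normal lung and at 68.8, 33.9 and 1.49 CPM in tumours (log2 -4.25 ± 2.53, adjusted p 0.182). Ighg2b ran from 1.03 to 319 CPM in normal lung and from 0.637 to 26.6 CPM in tumours (log2 -3.60 ± 2.17, adjusted p 0.188). None of these 3 passed. Ighg2c (0.111 to 89.9 CPM against 1.64 to 11.05 CPM, log2 -2.69 ± 2.22, adjusted p 0.329) did not pass either. Normal HDM replicates 1, 2 and 3 held 19.2, 0.302 and 0.295 CPM of Ighg3, and the tumours 1.60, 0.205 and 1.58 CPM (log2 -2.54 ± 1.97, adjusted p 0.30). It did not pass and was high in normal HDM replicate 1 alone, and the other two normal HDM libraries lay within the range of the tumours. Ighe had 24, 7 and 0 counts in normal HDM replicates 1, 2 and 3 and 0 in the 3 HDM tumours, at least 11.5-fold higher in normal lung against a floor of 3 counts over the tumour group.

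Igkc was at 2862, 1542 and 32.8 CPM in normal HDM lung and at 89.6, 89.7 and 12.6 CPM in HDM tumours. Jchain was at 1076, 646 and 5.01 CPM against 21.9, 47.1 and 2.85 CPM. Neither passed with all libraries (log2 -4.53 ± 1.78, adjusted p 0.0537, and -4.59 ± 2.02, adjusted p 0.0802). Without the 4 libraries of conflicting prefixes both were called lower (Igkc at -5.32, adjusted p 0.0138, and Jchain at -6.01, adjusted p 0.0155), as were Ighm (-5.22, adjusted p 0.00732) and Ighd, where 18% of genes were. With the name prefix as a block, 8 of the 9 genes were called lower under HDM, all but Ighg3, where 21.8% of all genes were called lower and 17.1% higher. Igkc then stood at -5.85 (adjusted p 0.0115), Jchain at -6.26 (adjusted p 0.0175), Igha at -6.50 (adjusted p 0.0489) and Ighg1 at -6.15 (adjusted p 0.0493). The pairs of libraries that share a prefix span both treatments and include those with conflicting labels, so they do not bear on HDM alone. Ighd, Ighg1 and Igkc were lower in the tumour in all 6 of these pairs, as were 30.1% of all genes, and Ighm, Igha and Jchain in 5 of 6. The count of 2 became 4 without normal VEH replicate 2 or normal HDM replicate 3, and 1 (Ighd) without normal HDM replicate 1 or any single tumour library of either treatment. Over all genes, 11512 of 22190 were called with all libraries, and 11801 of 23126 and 10695 of 22993 in the runs with 4. The runs with 1 called 9822 to 11719 genes.

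The third comparison asked whether HDM exposure changed the antibody genes in adjacent lung. No antibody gene was called by edgeR or DESeq2, though DESeq2 gave Ighg3 no adjusted p. In edgeR, 0 of the 9 had an unadjusted p below 0.05. Of all 22190 genes edgeR called 0%, DESeq2 called 0.172%, and 5.54% had an unadjusted p below 0.05. All 9 log2 fold changes lay above 0, from 0.53 ± 0.55 for Ighd to 2.59 ± 1.97 for Ighg3, with a median of 1.503 beside -0.01 over all genes. The groups overlapped for each of the 9, and normal VEH replicate 2 lay above normal HDM replicate 3 for 8 of them, whereas 4.47% of all genes were higher without overlap. The group means were 421 ± 683 and 1479 ± 1416 CPM for Igkc (SD, n = 3) in VEH and HDM lung, and 337 ± 538 and 1001 ± 859 CPM for Igha. Without the 4 libraries of conflicting prefixes, 2 libraries stood against 2, and the log2 values ran from 0.82 (Ighd) to 11.36 (Ighg1), with Igkc at 6.40 (adjusted p 0.188) and Igha at 5.77 (adjusted p 0.349). No antibody gene was called there, nor was any other gene (0%), while 8 of the 9 antibody genes had an unadjusted p below 0.05, as had 12.6% of all genes. Without normal VEH replicate 2 alone, Igkc stood at 5.82 and Igha at 5.198 (adjusted p 0.447 and 0.521), and without normal HDM replicate 1 Ighm turned to -0.40 and Ighg3 to -1.85.

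The fourth comparison asked the same of tumours. No antibody gene was called by edgeR, where 0.0946% of all genes were (0.00901% higher) and 16.7% had an unadjusted p below 0.05. Here 8 of 9 log2 values lay above 0, with a median of 3.08 beside -0.03 over all genes. Ighg1 had 1675, 993 and 49 counts in HDM tumour replicates 1, 2 and 3 and 1, 0 and 2 counts in the VEH tumours. It was the gene whose groups did not overlap, as were 11.3% of all genes in the upward direction. Over summed counts HDM tumours were 754-fold higher (95% exact counting interval 258 to 3659), and HDM tumour replicate 3 alone was 35.7-fold higher than the VEH tumours (11.5 to 179). The log2 value of 9.54 ± 3.81 did not pass in edgeR (adjusted p 0.259; unadjusted p 0.0304), whereas it passed in the DESeq2 Wald test (9.60, adjusted p 0.00455), which called 6.02% of genes.

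The other genes of HDM tumours were less uniform. Igha was at 80.7, 93.4 and 0.849 CPM in HDM tumours and at 8.75, 8.33 and 2.58 CPM in VEH tumours (log2 3.15 ± 1.94, adjusted p 0.436), so that HDM replicates 1 and 2 lay above and HDM replicate 3 below all VEH tumours. Igkc (log2 2.23 ± 1.62), Jchain (3.10 ± 1.93) and Ighg2b (3.08 ± 2.21) did not pass, with adjusted p of 0.513, 0.442 and 0.507. Ighg3 had 39, 6 and 52 counts in HDM tumours and 0, 7 and 0 in VEH tumours (log2 3.54 ± 2.34, adjusted p 0.466). Ighm (0.67 ± 1.29), Ighg2c (0.96 ± 2.14) and Ighd (-0.82 ± 0.58) were closest to 0 and did not pass. Without the 4 libraries of conflicting prefixes, Ighg1 stood at 10.51 (adjusted p 0.376) and Ighm turned to -0.13 (adjusted p 0.95), and no gene was called (0%). There 1 antibody gene had an unadjusted p below 0.05, as had 12.6% of all genes.

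Whether the difference between tumour and adjacent lung itself differed between HDM and VEH was tested as the interaction. No antibody gene was called by edgeR or DESeq2, and 0 of the 9 had an unadjusted p below 0.05. Of all genes edgeR called 0%, DESeq2 called 0.989%, and 9.39% had an unadjusted p below 0.05. The interaction was 7.63 ± 4.47 on the log2 scale for Ighg1 (adjusted p 0.58) and -1.35 ± 0.80 for Ighd (adjusted p 0.584), and it lay above 0 in 6 of the 9 genes, with a median of 0.95 beside -0.02 over all genes. Leaving out the 4 libraries of conflicting prefixes, no gene was called (0%), and 5 of the 9 antibody genes had an unadjusted p below 0.05, all 5 with a negative value, where 11.2% of all genes had such a p.

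**Figure D2:**
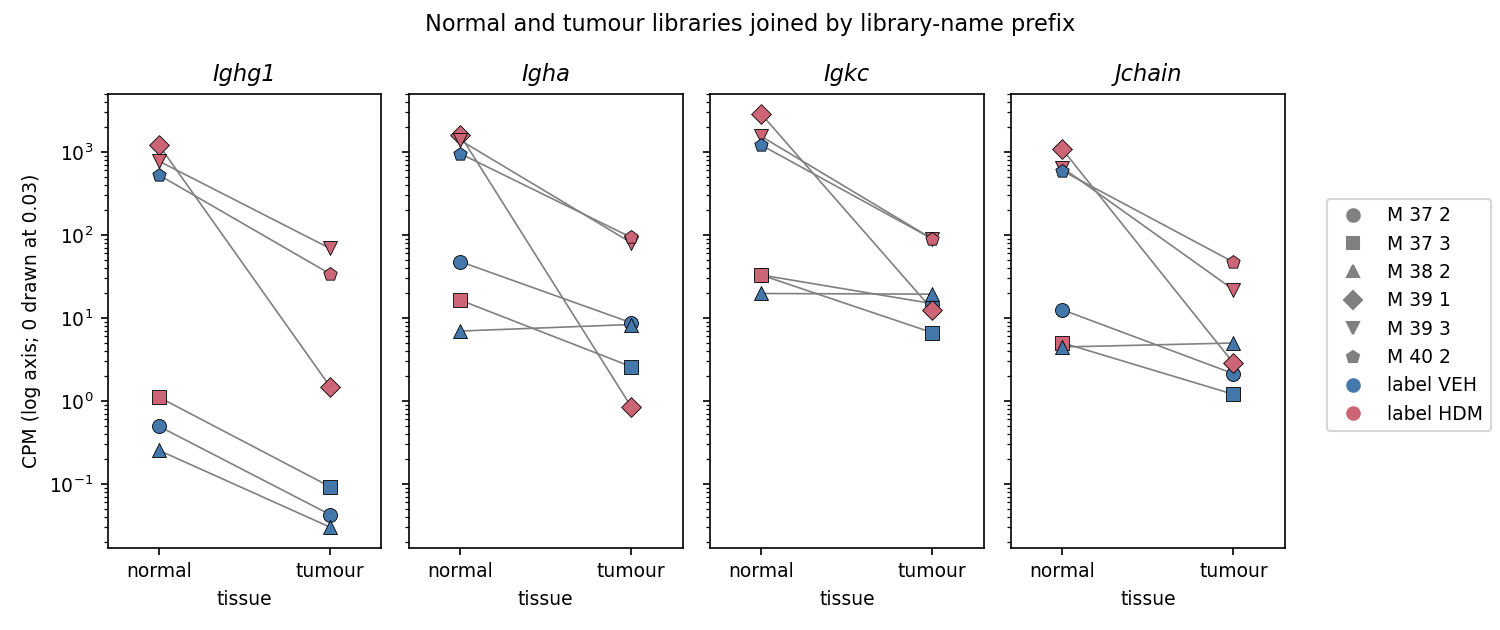
CPM (log axis, with 0 drawn at 0.03) of Ighg1, Igha, Igkc and Jchain in normal and tumour libraries, with a line joining the 2 libraries of each name prefix, marker shape for prefix and colour for treatment label. The 3 upper lines end in the 3 tumours labelled HDM, and the line from normal HDM replicate 1 to tumour HDM replicate 3 falls furthest for Igha (1597 to 0.849 CPM).

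The makeup of the heavy chains was then described as shares of the heavy-chain counts per kilobase of exon. IgM made up 50.2%, 37.6% and 70.4% in normal VEH replicates 1, 2 and 3 and 46.1%, 18.1% and 61.4% in normal HDM replicates 1, 2 and 3. The 4 IgG genes together made up 0.937%, 30.3% and 3.08% and 28.0%, 37.1% and 2.39% in the same libraries. The libraries with much antibody RNA were thus also those with a large IgG share, and those with little were mostly IgM and IgD. IgA did not follow this order, at 35.9%, 31.3% and 11.01% across normal VEH replicates 1, 2 and 3, and 25.4%, 44.2% and 14.5% in normal HDM lung. Normal VEH replicate 1 had little antibody RNA but a large IgA share. IgD made up 12.9%, 0.749% and 15.6%, and 0.441%, 0.624% and 21.7%.

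In VEH tumours IgM made up 59.8%, 69.5% and 84.8%, IgA 11.3%, 11.6% and 6.19%, and IgG 25.3%, 12.7% and 2.77%. The IgG there was nearly all Ighg2c and Ighg2b. Ighg2c alone was 23.4% in tumour VEH replicate 1, the largest Ighg2c share of the 12 libraries, with 7.40% and 1.33% in replicates 2 and 3. In counts that was 212 of 1270 heavy-chain counts in replicate 1, or 16.7% (95% exact interval 14.7 to 18.9). Ighg1 in tumour VEH replicate 2 was 0 of 1431, with an upper 95% exact limit of 0.257%. In HDM tumours IgM made up 17.5%, 40.7% and 84.3%, IgA 33.5%, 31.2% and 1.56%, and IgG 47.5%, 27.7% and 13.1%. HDM tumour replicate 1 had the largest IgG share of all 12 libraries, mostly Ighg1 (29.4%), and HDM tumour replicate 3 was close to tumour VEH replicate 3 in its IgM share.

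**Figure D3:**
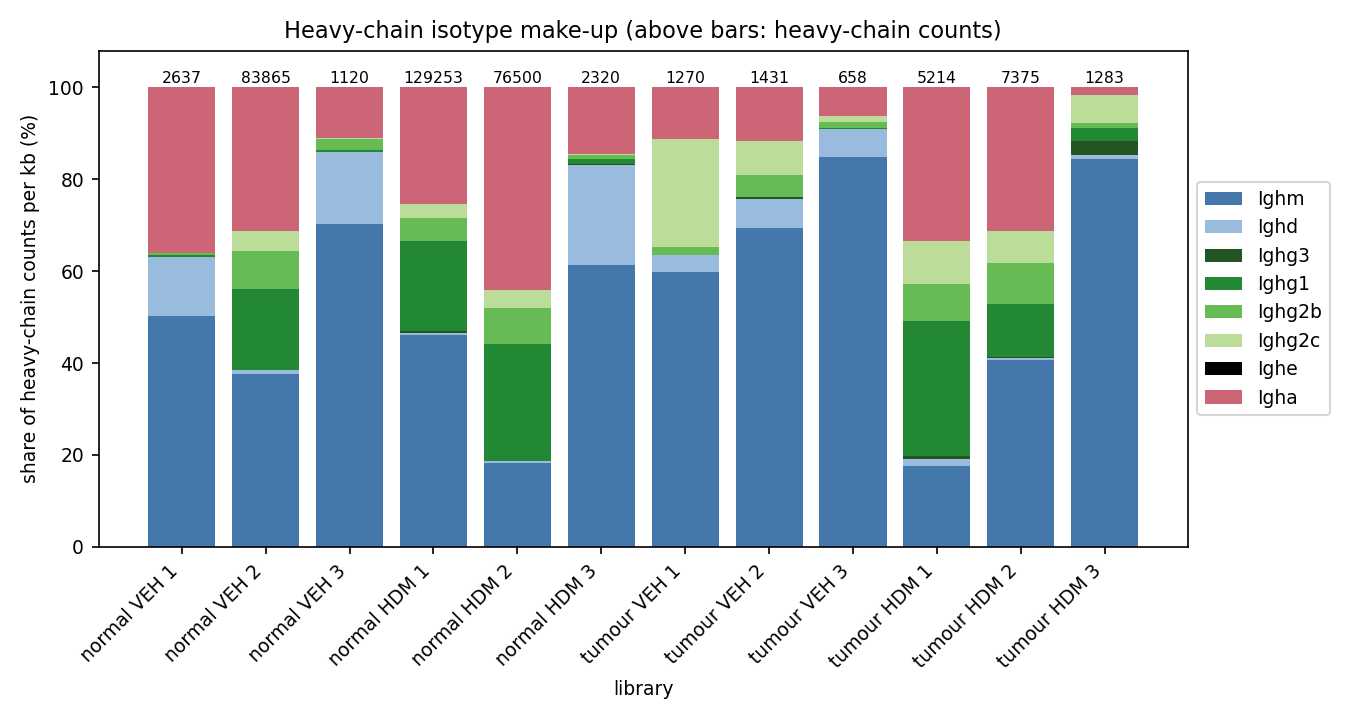
Share of heavy-chain counts per kilobase (stacked to 100%) by class in each library, with the number of heavy-chain counts above each bar. The 4 green IgG bands are thin in normal VEH replicates 1 and 3 and normal HDM replicate 3 (0.937% to 3.08%), and the palest band, Ighg2c, is widest in tumour VEH replicate 1 at 23.4%.

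These shares and 3 ratios were tested between tumour and adjacent lung by permuting tissue labels within each treatment, with 6 tests adjusted together. None passed. The IgA share was 11.2 percentage points lower in tumours (two-sided exact permutation p 0.17, adjusted 0.34), the IgM share 12.1 points higher (p 0.36, adjusted 0.54) and the IgG share 4.54 points higher (p 0.595, adjusted 0.595, exact permutation). The log2 ratio of Ighd to Ighm was 0.79 lower in tumours as a difference of means (-0.79; exact permutation p 0.5, adjusted 0.595). The log2 ratio of Jchain to all heavy chains, a measure of joining chain per antibody RNA, differed by -0.93 (exact permutation p 0.12, adjusted 0.34). It was -3.32, -2.29 and -3.74 in normal VEH lung, -2.46, -2.20 and -4.41 in normal HDM lung, -5.09, -3.76 and -5.02 in VEH tumours and -3.38, -2.59 and -4.16 in HDM tumours. The log2 ratio of Igkc to all heavy chains differed by -0.54, with the smallest p of the 6 (exact permutation p 0.035, adjusted 0.21). Its means were 0.65 ± 0.34 and 1.01 ± 0.41 in normal VEH and HDM lung and 0.01 ± 0.39 and 0.57 ± 0.34 in VEH and HDM tumours (SD, n = 3). Without the 4 libraries of conflicting prefixes, the Igkc ratio differed by -0.49 and the Jchain ratio by -1.17 (exact permutation p 0.111 and 0.0556, both adjusted 0.333), and the IgA, IgM and IgG shares by -14.6, 11.6 and 7.37 points (adjusted 0.667 each).

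Between treatments within a tissue, 3 libraries against 3 allow no p below 0.1, and 12 such tests were adjusted together. The IgG share was 11.04 percentage points higher in HDM than in VEH lung (exact permutation p 0.6, adjusted 0.8) and 15.9 points higher in HDM than in VEH tumours (exact permutation p 0.2, adjusted 0.6). The Jchain ratio was 1.25 higher on the log2 scale in HDM tumours (exact permutation p 0.2, adjusted 0.6). The lowest p of the 12 was 0.2 (exact permutation), so no ratio was called different between treatments.

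Light chains can be kappa, from Igkc, or lambda, from the Iglc genes of chromosome 16. Per kilobase, lambda was 22.6%, 6.06% and 21.2% of light chains in normal VEH replicates 1, 2 and 3 and 4.38%, 1.74% and 18.1% in normal HDM replicates 1, 2 and 3. The lambda share was thus low in the 3 libraries with much antibody RNA. In VEH tumours it was 8.14%, 10.3% and 22.0%, and in HDM tumours 3.82%, 9.48% and 11.1%. The Igkc values carry a doubt of their own, because Gm68839, annotated as a long noncoding RNA, lies wholly within Igkc on the opposite strand. It had 202182 counts in total against 157572 for Igkc, and between 1.10 and 1.43 times the Igkc count in each of the 12 libraries. The strand setting of the counting is not stated. By these positions, counting that ignored the strand could not give Gm68839 more counts than Igkc. Which gene the reads on each strand came from was not tested, so the 2 genes cannot be told apart. With both genes summed, the kappa ratio differed by -0.57 between tissues and did not pass (exact permutation p 0.035, adjusted 0.21). Since Gm68839 kept so even a ratio to Igkc, the sum was bound to give nearly the value of Igkc alone and is no separate check. Iglc1 and Iglc3 overlap 2010309G21Rik on the opposite strand (2253 counts, against 3179 and 1801) and are uncertain for the same reason. Of the 3 Iglc genes tested, 2 were lower in tumours under each treatment, where 20.6% (VEH) and 28.9% (HDM) of all genes were. Iglc2, free of such an overlap, fell by 4.13 under VEH and by 4.76 under HDM on the log2 scale (adjusted p 0.00926 and 0.00324).

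Each B cell clone uses 1 heavy-chain and 1 light-chain variable segment, so the segments give a view of how varied the antibodies are. The 113 heavy-chain segments (Ighv) had 10744 counts in normal VEH replicate 2 and 20446 and 17464 in normal HDM replicates 1 and 2. There, 70, 74 and 66 segments reached 10 counts, and the most counted one held 8.03%, 6.69% and 13.0% of the total, so the counts were spread over many segments. The other adjacent lungs had 193, 64 and 156 Ighv counts in normal VEH replicates 1 and 3 and normal HDM replicate 3. VEH tumours had 132, 125 and 33 counts, and HDM tumours 1129, 1479 and 223.

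Tumour VEH replicate 1 stood apart from the other 11 libraries in this measure. A single heavy-chain segment, Ighv3-6, held 87 of its 132 Ighv counts (65.9%, 95% exact interval 57.2 to 73.9), and a single kappa segment, Igkv12-41, held 108 of its 174 Igkv counts (62.1%, 54.4 to 69.3). In the other 11 libraries the most counted segment held 6.69% to 34.6% of Ighv counts and 7.83% to 16.2% of Igkv counts. The highest of these, 34.6% in normal HDM replicate 3, was again Ighv3-6, with 54 of 156 counts. The same tumour library was the one with the largest Ighg2c share. Ighv3-6 was counted in 11 of the 12 libraries, at up to 693 counts in normal VEH replicate 2, so the segment was not found in that tumour alone. Reads of similar segments may have been shared between them, and the total in tumour VEH replicate 1 is small. The intervals cover counting error only, since reads are not independent molecules.

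**Figure D4:**
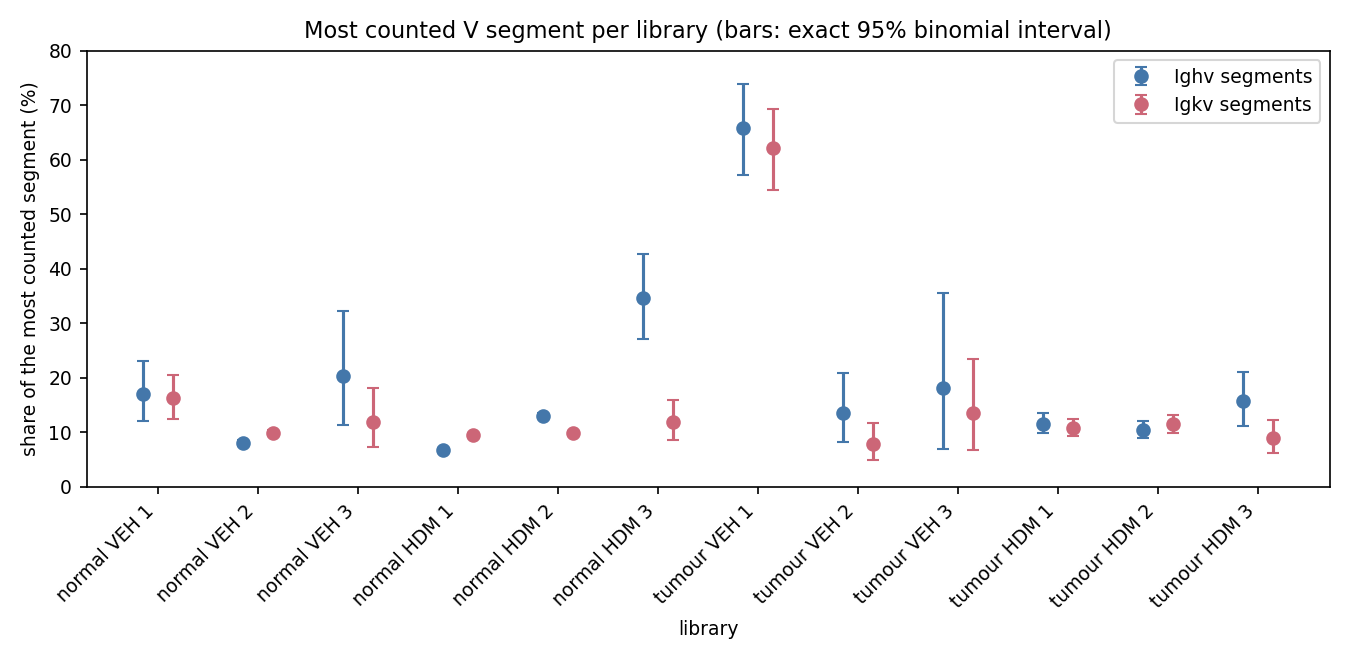
Share of the most counted variable segment among all Ighv counts (blue) and all Igkv counts (red) in each library, with exact 95% binomial intervals, which cover counting error only, as bars. Tumour VEH replicate 1 is at 65.9% and 62.1%, and the other libraries lie between 6.69% and 34.6%.

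Among the genes that mark B cells and plasma cells, some were high in the same adjacent lungs as the antibody genes and others were not, and those given here spanned a smaller range than Jchain. Cd22, a surface lectin that restrains B cell receptor signalling, measured 3.98, 25.1 and 3.12 CPM in the 3 VEH lungs by replicate number, against 25.7, 24.6 and 5.71 CPM in the HDM lungs. Pou2af1, a transcriptional coactivator of B and plasma cells, was at 2.46, 15.2 and 2.95 CPM and at 21.3, 11.1 and 4.12 CPM. Both were high in the 3 libraries with much antibody RNA. Cd79a, a signalling partner of the B cell receptor, had 16.3, 22.2 and 11.3 CPM across normal VEH replicates 1, 2 and 3, while normal HDM replicates 1, 2 and 3 had 37.8, 21.8 and 18.9 CPM. Mzb1, a chaperone of antibody assembly in plasma cells, was at 1.19, 1.04 and 0.379 CPM and at 2.33, 1.62 and 1.03 CPM, and Derl3, an endoplasmic reticulum protein of plasma cells, at 1.93, 2.96 and 1.35 CPM and at 7.29, 5.59 and 1.77 CPM. Cd79a and Derl3 thus also had their highest values in those 3 libraries, by a small margin for Cd79a (21.8 against 18.9 CPM). Mzb1 did not, as normal VEH replicate 1 lay above normal VEH replicate 2. Jchain ran from 4.46 to 1076 CPM across adjacent lung. Over the 5 B cell markers, the summed level was 34.5 to 63.2 CPM in normal VEH lung, 63.3 to 102 CPM in normal HDM lung, 10.1 to 17.0 CPM in VEH tumours and 3.37 to 12.9 CPM in HDM tumours. Over the 6 plasma cell markers, Jchain included, it was 406 to 966, 341 to 1498, 192 to 271 and 190.5 to 432 CPM. Sdc1, a proteoglycan that epithelial cells also make, held 182 to 511 CPM of that sum across the 12 libraries, and the other markers besides Jchain were at 14.7 CPM or less each. The defining plasma cell receptor Tnfrsf17 was at 0 in all 3 VEH tumours. The part of these cell types in the antibody results was not tested.

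**Figure D5:**
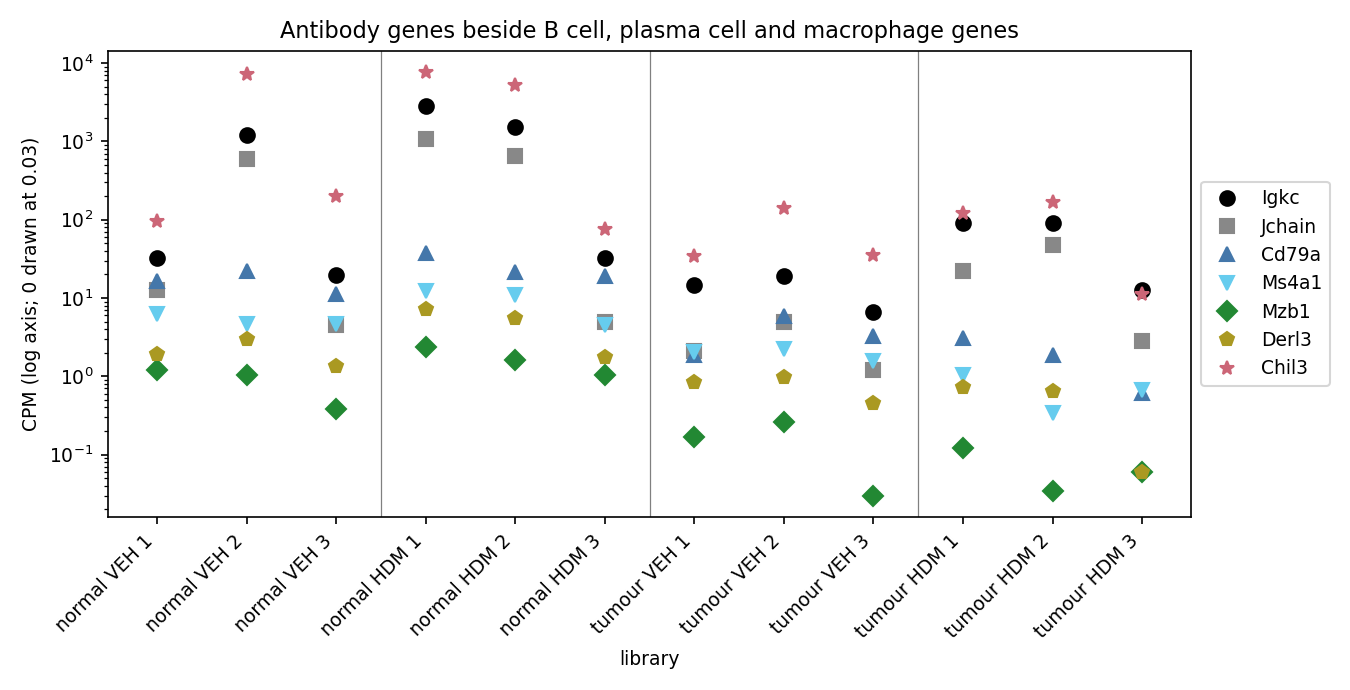
CPM (log axis, with 0 drawn at 0.03) of Igkc and Jchain beside the B cell genes Cd79a and Ms4a1, the plasma cell genes Mzb1 and Derl3 and the macrophage gene Chil3 in each library, with lines between groups. Igkc and Jchain move by a large factor between adjacent lungs (4.46 to 1076 CPM for Jchain), as does Chil3 (75.3 to 7705 CPM), while Cd79a stays between 11.3 and 37.8 CPM.

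The B cell identity list held 18 genes, all tested. Under VEH 9 were lower and 1 higher in tumours (median log2 -1.34 beside -0.11 over all genes, where 20.6% and 18.2% were called lower and higher). Cd79a fell by 2.18 and Ms4a1, which encodes CD20, fell by 1.41 on the log2 scale (adjusted p 0.0146 and 0.0318). The gene that rose was Spib (1.96, adjusted p 0.0342), a transcription factor of B cells and other lineages, with 33.6 CPM in tumour VEH replicate 2. Under HDM 14 were lower and 1 higher (median -2.92 beside -0.08, where 28.9% and 23% of genes were called lower and higher). Cd79a fell by 3.82 and Ms4a1 fell by 3.75 (adjusted p 0.000778 and 0.00028). The counts of lower genes without the 4 libraries of conflicting prefixes were 0 under VEH (4 at an unadjusted p below 0.05) and 11 under HDM. Of all genes, 9.23% and 18% were called lower in those fits. Cd79a overlaps Gm72234 on the opposite strand, which had 1531 counts against 3806.

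The plasma cell program list also held 18 genes, all tested. Under VEH 6 were lower and 1 higher (median -0.51, also with Tnfrsf17 at its bound), where 20.6% and 18.2% of all genes were. Under HDM 8 were lower and 3 higher (median -1.14), where 28.9% and 23% of all genes were. Mzb1 fell by 2.53 under VEH (adjusted p 0.0414) and by 4.46 under HDM (adjusted p 0.00317). Tnfrsf17, the receptor that keeps plasma cells alive, was at 0 in the VEH tumours and at least 13.8-fold higher in normal VEH lung (adjusted p 0.0224). Irf4, a transcription factor needed for plasma cell formation, fell by 3.04 under HDM (adjusted p 0.000481). Txndc5, an endoplasmic reticulum enzyme found in many secreting cells, rose by 0.99 and 0.84 (adjusted p 0.000398 and 0.000313), though Bmp6 overlaps it on the opposite strand. The counts of lower genes were 1 under VEH and 7 under HDM when those 4 libraries were left out. Among all genes, 9.23% and 18% were called lower there.

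Among genes of class switching and B cell help, 10 of 15 passed the filter on low counts. Under VEH 2 were lower and 2 higher (median -0.03), and under HDM 3 were lower and 1 higher (median 0.08). Over all genes, 20.6% were lower and 18.2% higher under VEH, and 28.9% and 23% under HDM. The counts of lower genes in this list were thus near the share of all genes. Il13, a cytokine of allergic inflammation, was at 0 counts in 11 libraries and at 6 in normal HDM replicate 3. Tnfsf13, which encodes the B cell survival factor APRIL, fell by 2.01 and 2.60 (adjusted p 0.0157 and 0.00326), and Tnfsf13b, which encodes its relative BAFF, fell by 3.66 under HDM (adjusted p 0.000407). Under each treatment 5 of the 10 had a log2 value below 0 and 5 above. Ung had 28 to 172 counts in adjacent lung and 309 to 516 in tumours, and Apobec1 had 118 to 517 and 441 to 962. Tnfsf13 is uncertain, because Tnfsf13os lies across it on the opposite strand with 4386 counts against 820. When those 4 libraries were left out, 0 genes of this list were lower under VEH (2 at an unadjusted p below 0.05) and 2 under HDM. The shares of all genes called lower were 9.23% and 18%.

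Among antibody receptors and transport genes, 8 of 10 passed the filter. Under VEH 0 were lower and 1 higher (median 0.53), where 20.6% and 18.2% of all genes were. Under HDM 2 were lower and 1 higher (median -0.01), where 28.9% and 23% of all genes were. Pigr, the epithelial carrier of IgA and IgM, was at 338, 949 and 120.1 CPM in normal HDM lung and at 22.1, 12.5 and 0 CPM in HDM tumours, and it fell by 5.35 ± 1.65 on the log2 scale (adjusted p 0.02). Fcgr1, the high-affinity receptor for IgG on macrophages, rose under both treatments (3.29 and 2.53, adjusted p 0.00396 and 0.00791). Leaving out those 4 libraries gave a different count under VEH, where 5 genes of this list were then higher, with 1 under HDM. The shares of all genes called higher were then 15.8% and 20%.

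Of 12 homing and niche genes, 1 was lower and 1 higher under VEH (median -0.89), where 20.6% and 18.2% of all genes were. Under HDM 7 were lower and 1 higher (median -1.52), where 28.9% and 23% of all genes were. Without those 4 libraries, 0 were lower under VEH and 3 under HDM (1 and 3 at an unadjusted p below 0.05). Over all genes 9.23% and 18% were called lower there. Cxcl12, a chemokine that holds plasma cells in their niche, fell under both treatments (log2 -2.59 and -4.51, adjusted p 0.00374 and 0.000229). Itgb7, an integrin chain used in mucosal homing, rose by 2.38 and 2.70 (adjusted p 0.00674 and 0.00243). No gene of the B cell, plasma cell, switching, receptor or homing lists was called between HDM and VEH in lung, in tumours or in the interaction by edgeR, where 0%, 0.0946% and 0% of all genes were. In tumours, 6 B cell genes and 5 plasma cell genes, of 18 each, had an unadjusted p below 0.05, as had 16.7% of all genes. DESeq2 called 5 and 1 genes of these lists there, and 6.02% of all genes. In the interaction these counts were 7 and 3 unadjusted (9.39% of all genes), with 3 and 0 called by DESeq2 (0.989%). In lung they were 1 and 1 unadjusted (5.54% of all genes), with 0 and 0 called by DESeq2 (0.172%).

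Lastly, the genes that varied most like Igkc, Igha and Ighm were ranked by the correlation of log2 CPM after the mean of each group was removed, over 12 libraries and 16387 genes outside the immunoglobulin and T cell receptor families. For Igkc they were Gm68839 (r 0.999), Pld3 (0.993), Jchain (0.991), Tnip1 (0.989) and Ctsd (0.987). For Igha they were Stra6l (0.988), Ftl1 (0.979), Itgax (0.978), Stac2 (0.970) and Itih4 (0.970). For Ighm they were Cd33 (0.982), Abhd12 (0.979), Tyrobp (0.976), Cyb561a3 (0.975) and Cd300c2 (0.974). The 12 points share the same libraries and depths for each gene, so the values are descriptions. With group means kept, r with Igkc was 0.999 for Gm68839, 0.991 for Jchain, 0.885 for Pld3, 0.854 for Ctsd and only 0.114 for Tnip1. With Igha it then ran from 0.689 (Itgax) to 0.941 (Ftl1), and with Ighm from 0.568 (Cd300c2) to 0.843 (Abhd12). Tnip1 was at 26.2 to 48.7 CPM in adjacent lung and at 39.2 to 64.6 CPM in tumours. Itgax, which encodes the integrin CD11c, had 20.4, 162 and 12.2 CPM across normal VEH replicates 1, 2 and 3 and 231, 172 and 24.6 CPM across normal HDM lung. Ftl1, the ferritin light chain, ran from 1184 to 2375 CPM in the same libraries and is uncertain, since Gm10252 overlaps it on the opposite strand. Tnip1 overlaps Gpx3 on the opposite strand (178724 counts against 14197) and is uncertain too. Chil3, a product of alternatively activated macrophages that was picked after its values were seen, had levels of 94.95, 7313 and 203 CPM in VEH lung and 7705, 5271 and 75.3 CPM in HDM lung, high in the same 3 libraries as the antibody genes.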

How the data were processed

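Bulk RNA-seq was measured in 12 libraries of 4 groups with 3 replicates each. The deposited table holds raw counts per gene with gene lengths, per the file headers. The submitters' processing notes name Trim Galore, STAR, Subread, featureCounts and the mm39 build. Versions and the strand setting are not given in the sources used here, and the labels' protocols describe a stranded library kit. Of 78298 gene identifiers, 78168 were found in GENCODE M39 (GRCm39), which gave symbols, positions and sequences. Library totals of 20608682 to 32765364 counts set the precision.

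The members and lists were chosen with earlier results of these data known. Genes were filtered with filterByExpr (minimum count 10), scaled by TMM and tested with edgeR 4.0.16 (robust quasi-likelihood test, 1 coefficient per group over all 12 libraries, R 4.3.3). P-values were adjusted by Benjamini-Hochberg over 22190 genes, with calls at an adjusted p below 0.05. SE is the log2 fold change divided by the root of F. The fit was tested on simulated data in which all genes had the same dispersion. The antibody genes spread far more widely within groups, so that test does not cover them. Shares and ratios used counts per kilobase of deposited length, with a pseudocount of 0.5 counts in log2 ratios, and 400 relabellings in the exact test (smallest p 0.005). Intervals are exact (Clopper-Pearson, 95%) and cover counting error only. All members, the genes of the fixed lists with a role in the text and the 5 genes most like Igkc, Igha and Ighm (mean log2 CPM of at least 1) were named. Alternatives were DESeq2 1.42.0, other scalings and filters, blocks by replicate number or name prefix, the compared groups alone, and fits without each library or the 4 libraries of conflicting prefixes. The sum of Igkc and Gm68839 and the list counts without those 4 libraries were added after seeing the data.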

Additional observations from a re-analysis of the deposited data

How the results depend on the processing

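Samples that share a replicate number did not deviate together (correlations of -0.36 to 0.28), nor did those that share a name prefix (-0.22 to 0.18). These deviations are from group means that include the libraries of conflicting prefixes, so they cannot decide whether a prefix marks a pair. The main fit used no pairing because the treatment labels of 2 prefixes conflict. With the replicate number as a block, 2 antibody genes were called under VEH and 4 under HDM. That fit called 7830 and 11001 of all 22190 genes. With the prefix as a block, 1 was called under VEH (Ighg2c, higher in tumours) and 8 under HDM, beside 5783 and 8631 of all genes.

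For tumour against normal under VEH, where 3 antibody genes were called, the count was 7 with DESeq2, 1 without a filter on low counts, 1 with the compared groups alone, 1 without the 4 libraries of conflicting prefixes, and 0 to 5 without each library in turn. Over all genes the main fit called 8624 of 22190. The settings named called 10379 of 22145, 6848 of 40856, 6790 of 20208 and 5603 of 22414, in that order. Without each library in turn the calls ran from 5733 of 23204 to 9070 of 23158. For tumour against normal under HDM, where 2 antibody genes were called, the count was 5 with DESeq2, 1 without a filter, 4 without those 4 libraries, and 1 to 4 without each library in turn. Over all genes the main fit called 11512 of 22190, and those settings called 12409 of 22145, 10230 of 40856 and 8505 of 22414. Without each library in turn the calls ran from 9822 of 23096 to 11801 of 23126. Between treatments in tumours DESeq2 called 1 antibody gene (Ighg1) and 6.02% of all genes. No composition ratio passed under any alternative run, though some runs left little or no room to pass. Without the 4 libraries, 36 relabellings allow no p below 0.0556. Over the 6 prefix pairs, the Igkc and Jchain ratios both had the smallest possible p (sign-flip p 0.03125, adjusted 0.0938 each). Over equal replicate numbers, the Igkc ratio had the same p (sign-flip test, adjusted 0.188).

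Some log2 fold changes turned in sign. Under VEH, Ighg2b became 1.19 with the prefix block and 1.24 without the 4 libraries, and ran from -6.47 to 0.71 without each library in turn. Ighg2c became 5.69 and 7.07 and ran from -3.78 to 6.42, and Ighg3 became 4.90 without the 4 libraries and ran from -7.85 to 4.34, with normal VEH replicate 2 left out at each upper end. Without each library in turn, Ighg3 under HDM ran from -3.11 to 1.90, and HDM against VEH in lung ran from -0.40 to 4.41 for Ighm and from -1.85 to 10.42 for Ighg3, turning without normal HDM replicate 1. In tumours, the prefix block turned HDM against VEH to -3.47 (Ighm), -1.37 (Ighg1), -4.60 (Ighg2b), -7.71 (Ighg2c), -2.14 (Ighg3), -3.19 (Igha), -3.39 (Igkc) and -3.44 (Jchain). By construction, that fit estimates treatment only through the 2 prefixes with conflicting labels. Ighm there was -0.13 without the 4 libraries. The IgG share, 4.54 points higher in tumours, ran from -0.478, without normal HDM replicate 3, to 9.26. The cause of the other changes was not tested.

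Scaling by library size alone moved the median of all genes from -0.11 to 0.03 under VEH and from -0.08 to 0.10 under HDM, and turned no antibody gene. Ighg1 at 3 counts over the VEH tumours and Ighe at 0 in all tumours are limited by depth, and tumour VEH replicate 3, with 658 heavy-chain counts, gives the least precise shares.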
